A study of Mus musculus with 6 samples.

Results

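The 10 imprinted growth genes H19, Igf2, Igf2r, Meg3, Dlk1, Cdkn1c, Grb10, Peg3, Plagl1 and Mest were followed in sorted leukaemia initiating cells (LICs, those that can found a new leukaemia) labelled adult or neonatal. They were taken by symbol from the gene count table, where all 10 of the 10 were found among 23337 genes. The comparison set 3 libraries labelled adult (replicates 1, 2 and 4) against 3 labelled neonatal (replicates 4, 7 and 8), all from mouse haematopoietic stem and progenitor cells. The labels used here give no leukaemia driver, strain, sex, treatment or exact age, nor whether each replicate was its own animal. The p-values therefore measure variation among these libraries alone, which could be technical. The question was how these fetal growth genes stood in LICs of both ages.

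Imprinted genes are read from 1 parental copy, which is set by DNA methylation marks laid down in the germ line. Genes read from the paternal copy tend to promote growth before birth, such as Igf2, which encodes a growth factor, and genes read from the maternal copy tend to restrain it, such as Igf2r, whose receptor clears that factor, and Cdkn1c, whose protein stops the cell cycle. Several of them are known in blood for their expression in quiescent long-term stem cells and in fetal blood-forming tissue. The counts do not tell the parental copies apart.

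Library totals were 60113466 to 66132051 counts in 5 libraries and 3932833 in neonatal replicate 4, so that the others held 16.2 times as many on average. Values are counts scaled to TMM-adjusted library size (CPM), and levels are compared between genes only as CPM per kilobase of exon (RPKM). A count of 0 is given an upper limit of 3 counts, which covers counting error only and comes to 0.897 CPM for neonatal replicate 4 against at most 0.0502 CPM elsewhere. Xist reached at least 51.7 CPM in every neonatal library and at most 0.919 CPM in the adult ones, and Eif2s3y on chromosome Y was at 125 to 154 CPM in adult libraries with 0 counts in neonatal ones, so sex and age group cannot be told apart. The defining markers of the sorted cells were present, with Ptprc (CD45) at 144 to 322 CPM and Kit at 23.6 to 264 CPM. Of 12 marker genes of the sorted cells, Cd34 lay wholly higher in neonatal libraries, at 8.16 to 105 CPM (adult) against 396 to 662 CPM (neonatal). Itgam (63.8 to 215 against 4.48 to 59.6 CPM) and Csf3r lay wholly lower. Among markers of other cells, 10 mature neutrophil genes summed to 1840 to 14900 CPM (adult) against 79.6 to 292 CPM (neonatal). Stromal marker genes summed to 12.3 to 21.8 CPM (adult) against 22.4 to 740 CPM (neonatal), with Postn alone at 627 CPM in neonatal replicate 8 and 3 of 12 genes (Col3a1, Dcn and Lum) at 0 counts in every library. Endothelial genes summed to 42.8 to 73.2 against 83.7 to 127 CPM. Egfl7 and Pecam1 lay wholly higher in neonatal libraries, and 5 of 12 (Cdh5, Emcn, Kdr, Robo4 and Sox17) were at 0. Of the 4 tested, 3 had a positive log2 fold change and Vwf a negative one (-1.66). Vwf was at 0.654 to 10.9 CPM (adult) against 0.299 to 2.87 CPM (neonatal). Of 12 fetal hepatocyte genes 6 were at 0, Alb and Ttr among them. The part of these cells in the results was not tested.

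Most of the 10 genes were silent or close to it. H19, Peg3 and Plagl1 had 0 counts in all 6 libraries, as had 27.5% of the genes of the table. Igf2 and Meg3 had a few reads in adult libraries only, Dlk1 and Grb10 had reads in 2 and 3 libraries, Igf2r in 4, and only Cdkn1c and Mest in all 6. Per length, Cdkn1c stood highest of them in every library, at 5.08 to 29.2 RPKM, against at most 3.23 RPKM for Igf2r and 1.43 RPKM for Mest. Igf2r had reads in only 1 neonatal library, so it could not have passed the filter on low counts without its adult reads. Only Cdkn1c, Igf2r and Mest passed that filter and were tested. By edgeR's quasi-likelihood test 0 of these 3 passed an adjusted p of 0.05, where 7 of 13272 genes (0.0527%) did, 0.0151% higher and 0.0377% lower in neonatal libraries. With chromosomes X and Y left out edgeR called 0 genes, so these 7 calls depend on keeping those chromosomes. Of the 3 members, 2 had an unadjusted p under 0.05 (Cdkn1c and Igf2r, against 11.9% of all tested genes). DESeq2 called 1 (Cdkn1c) and 5.72% of all tested genes, and limma voom called 0 and 0.0527%.

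**Figure D1:**
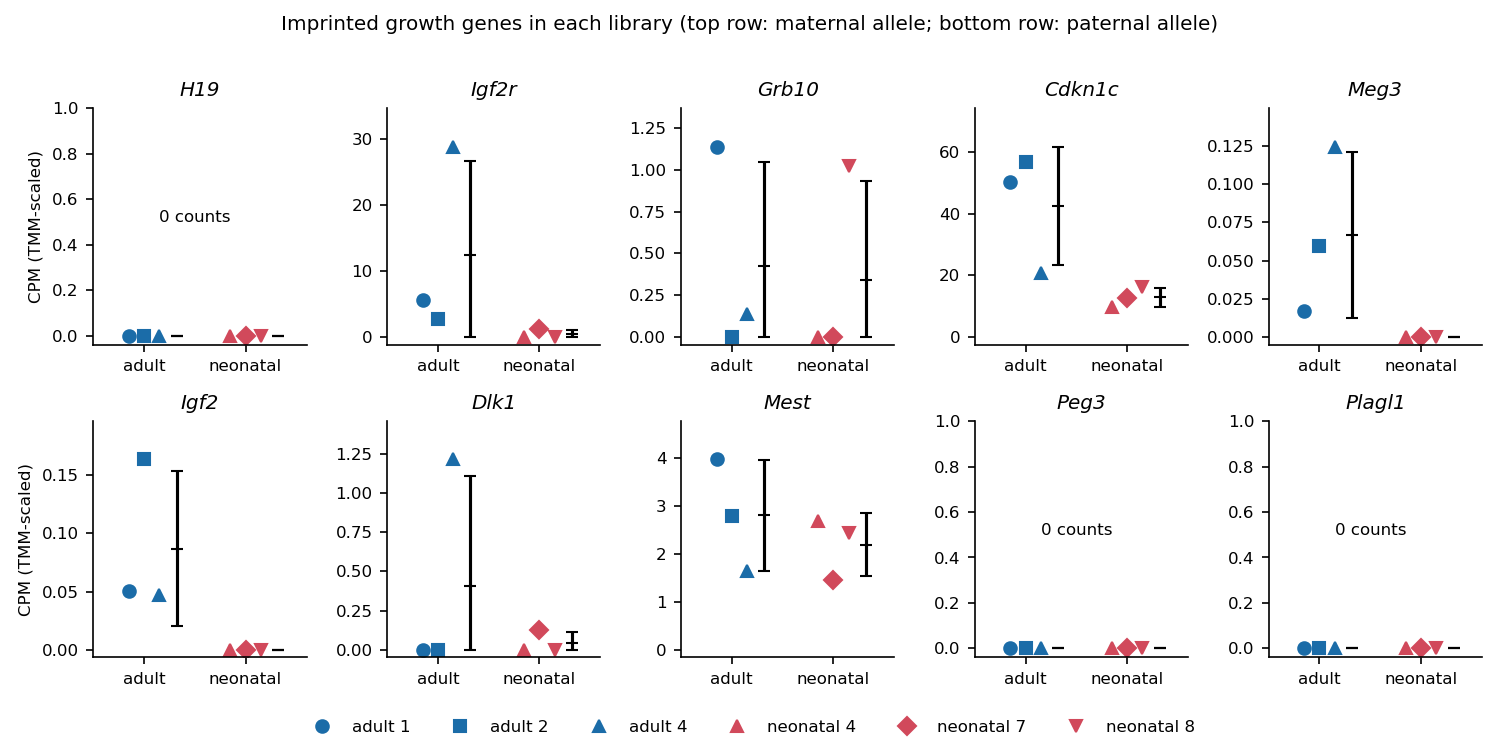
CPM of each of the 10 genes (vertical axis, linear, its own scale in each panel) in adult (blue) and neonatal (red) libraries, with genes known to be read from the maternal copy above and from the paternal copy below. Symbols are libraries, and the black bar beside each group is the mean with SD (n = 3), cut at 0. Cdkn1c separates the groups (20.7 to 56.7 against 9.86 to 16.1 CPM), adult replicate 4 stands alone for Igf2r and Dlk1, and H19, Peg3 and Plagl1 lie at 0.

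The growth factor and its neighbour were all but absent. Igf2 (chromosome 7, 142650768 to 142661035, mm10, minus strand), the main fetal insulin-like growth factor, had 3, 11 and 3 counts in adult replicates 1, 2 and 4 and 0 counts in neonatal replicates 4, 7 and 8. The adult mean was 0.0869 ± 0.0665 CPM (SD, n = 3). Taken as exact, it set a bound of 4.10-fold lower in the neonatal group against 3 counts over that group. The counting error of the adult reads is not in this bound. It rests on 17 reads, 11 of them in adult replicate 2, without which the bound is 2.29-fold, and Igf2 was too low to be tested. Neonatal replicates 7 and 8 carry the bound, as the limit of replicate 4 (0.897 CPM) lies above all adult values. H19 (chromosome 7, 142575532 to 142578146, minus strand), the long noncoding RNA read from the maternal copy next to Igf2, had 0 counts in every library. Igf2as, antisense to Igf2, had 2 counts, both in neonatal replicate 7, and shares 98 exon bases with Igf2, which unstranded reads cannot assign. Ins2, the insulin gene beside Igf2, had 0 counts.

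Both genes, and Mest, carry a microRNA. The mature sequences that lie inside the silent H19, the nearly silent Igf2 and the expressed Mest are shown because their host RNA is what the counts bear on. They are RefSeq entries (GRCm38.p6), written 5′ to 3′ with the seed (bases 2 to 8) in capitals.
mmu-miR-675-5p (H19): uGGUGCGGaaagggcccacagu
mmu-miR-483-3p (Igf2): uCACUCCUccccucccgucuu
mmu-miR-335-5p (Mest): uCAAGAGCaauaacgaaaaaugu
The 3 seeds differ from each other. The count table lists the hairpins Mir675, Mir483 and Mir335 with 0 counts in every library, but polyA selection does not keep mature microRNAs, so their levels were not measured.

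Igf2r, the receptor that clears IGF2 and carries enzymes tagged with mannose 6-phosphate to lysosomes, was read in all adult libraries and in 1 neonatal library. Igf2r (chromosome 17, 12682406 to 12769706, minus strand) was at 5.58, 2.68 and 28.8 CPM (adult replicates 1, 2, 4) against 0, 1.19 and 0 CPM (neonatal replicates 4, 7, 8). Adult replicate 4 held 75.6% of its reads, and the lowest adult library lay above the highest neonatal one, as for 12.0% of tested genes (19.7% did not overlap in either direction). The group means were 12.4 ± 14.3 and 0.397 ± 0.687 CPM (SD, n = 3 each), with a log2 fold change, neonatal minus adult, of -4.64 ± 1.68 (SE, edgeR adjusted p = 0.332). Without adult replicate 4 the log2 fold change was -3.10 and without neonatal replicate 7, the only neonatal library with reads, it was -12.34 (edgeR adjusted p = 0.586 and 0.305, with 0.0982 to 0.586 over all 16 alternatives). The limit of 0.897 CPM in the shallow neonatal replicate 4 lies under all adult values.

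Airn, the noncoding RNA from the paternal copy that silences Igf2r in cis, had 21, 0 and 232 counts in adult replicates 1, 2 and 4 and 0 counts in the neonatal libraries. Airn and Igf2r were both highest in adult replicate 4. Airn and Igf2r share no exon bases in the annotation used, but Airn runs through the Igf2r gene on the other strand, and the libraries do not mark strand. Slc22a3, an organic cation transporter gene of the same imprinted cluster, was at 0.435, 1.12 and 0 CPM (adult replicates 1, 2, 4) against 0, 23.1 and 2.81 CPM (neonatal replicates 4, 7, 8) (edgeR adjusted p = 0.446). It was highest in neonatal replicate 7 and had 0 counts in adult replicate 4. Slc22a2 had 0 counts.

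Other lysosomal genes did not share the low level of Igf2r. Per length, Igf2r stood at 0.300 to 3.23 RPKM in adult libraries, while M6pr, the smaller mannose 6-phosphate receptor, stood at 194 to 230 RPKM in adult and 161 to 204 RPKM in neonatal libraries. M6pr overlapped between the groups (log2 fold change -0.30, edgeR adjusted p = 0.745). The 16 listed genes, M6pr and genes for the receptors' cargo enzymes and their tagging, were all tested. Of these, 11 had a positive and 5, M6pr among them, a negative log2 fold change (median 0.38, against 0.05 over all tested genes). By edgeR 0 were called. There were 3 at an unadjusted p under 0.05 (all tested genes 11.9%), and DESeq2 called 2 (all tested genes 5.72%). The 3 that lay wholly higher in neonatal libraries, as 7.69% of all tested genes did, were Glb1, the lysosomal beta-galactosidase, Ctsa, a lysosomal carboxypeptidase, and Ctsz, a cathepsin. Ctsa had an adult mean of 230 ± 17.1 and a neonatal mean of 778 ± 382 CPM (± SD with n = 3, edgeR adjusted p = 0.173). Glb1 had an adult mean of 26.2 ± 2.43 and a neonatal mean of 67.0 ± 18.9 CPM (± SD with n = 3, edgeR adjusted p = 0.167), and Ctsz 383 ± 140 and 747 ± 180 CPM (SD, n = 3 each, edgeR adjusted p = 0.362). Without neonatal replicate 4, Ctsa, Glb1, Gaa and Man2b1 rose (4 of 16, where 5.98% of 13856 genes were called, 3.72% higher and 2.25% lower, Gaa and Man2b1 named after their values were seen). Over 16 alternatives the adjusted p ran from 0.00323 to 0.442 for Ctsa and from 0.00129 to 0.454 for Glb1.

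Grb10, the adaptor that dampens insulin and IGF receptor signalling, was read in 3 libraries of both ages. Grb10 (chromosome 11, 11930499 to 12037420, minus strand) was at 1.14, 0 and 0.140 CPM (adult replicates 1, 2, 4) against 0, 0 and 1.02 CPM (neonatal replicates 4, 7, 8). Adult replicate 1 (68 counts) and neonatal replicate 8 (69 counts) were alike. Adult replicates 2 and 4 and neonatal replicate 7 were lower, so the groups overlapped. Neonatal replicate 4 cannot be placed, as its 0 counts have an exact Poisson upper limit of 1.10 CPM, above the value of neonatal replicate 8. Grb10 was too low to be tested on 6 libraries. On the 5 deeper libraries its log2 fold change came to 0.28 ± 2.27 (SE, edgeR adjusted p = 0.949). Ddc, its imprinted neighbour that encodes an amine-forming decarboxylase, was at 1.26, 0.402 and 0.358 CPM (adult replicates 1, 2, 4) against 0, 0 and 0.0296 CPM (neonatal replicates 4, 7, 8), with 2 neonatal reads in all (log2 fold change -5.37 ± 1.38, SE, edgeR adjusted p = 0.179). It was tested only because of its adult reads, so the groups had to differ. Cobl, on the other side, had 0 counts.

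Grb14, the close relative of Grb10 and an inhibitor of the insulin receptor, was named after its values were seen. It had 6171 counts (96.1 CPM) in adult replicate 4 and 0.104 to 1.49 CPM in the other 5 libraries. Its log2 fold change of -6.44 became 0.59 without that library (edgeR adjusted p = 0.371 and 0.935, with 0.189 to 0.935 over all 13 alternatives).

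Cdkn1c, which encodes the cyclin-dependent kinase inhibitor p57 that holds cells out of the cycle, was per length the highest of the 10 genes in every library, although Igf2r had more CPM in adult replicate 4. Cdkn1c (chromosome 7, 143458339 to 143461050, minus strand) was at 50.4, 56.7 and 20.7 CPM (adult replicates 1, 2, 4) against 9.86, 12.7 and 16.1 CPM (neonatal replicates 4, 7, 8). All adult values lay above all neonatal ones, with adult replicate 4 nearest to them. The means were 42.6 ± 19.2 and 12.9 ± 3.14 CPM (SD, n = 3 each), with a log2 fold change of -1.71 ± 0.45 (SE), 3.28-fold lower in neonatal libraries, which did not pass over all genes (edgeR adjusted p = 0.195). DESeq2 called it (adjusted p = 0.0145, log2 fold change -1.69), as did limma voom with library quality weights (0.0496), which called 7.96% of all tested genes. Over 16 alternatives the log2 fold change ran from -2.04 to -1.45 and the adjusted p from 0.0145 to 0.472. In neonatal replicate 4 the value rests on 33 counts, with an exact Poisson 95% interval of 6.79 to 13.9 CPM that covers counting error only. Without that replicate the log2 fold change was -1.55 ± 0.46 (SE, edgeR adjusted p = 0.0871). The summed mature neutrophil genes were highest in adult replicate 2 (14900 CPM), then 1 (5970 CPM), then 4 (1840 CPM), the order of Cdkn1c among adult libraries. In neonatal replicates 4, 7 and 8 they summed to 292, 156 and 79.6 CPM, the reverse of the order of Cdkn1c there. The part of neutrophils in the level of Cdkn1c was not tested. In bulk RNA, fewer cells that express a gene and less of its RNA per cell cannot be told apart.

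Among inhibitors of the same enzymes, per length, Cdkn1c held 6.82% to 10.4% of the summed RPKM of 7 genes in adult libraries and 2.79% to 3.47% in neonatal ones. Its level was 10.7 to 29.2 RPKM in adult and 5.08 to 8.31 RPKM in neonatal libraries. Cdkn2c and Cdkn2d, the p18 and p19 inhibitors of CDK4 and CDK6, were the highest pair in every library, at 44.9 to 146 and 61.0 to 111 RPKM. Cdkn1a, the p53 target p21, was at 10.5 to 25.2 RPKM and Cdkn1b, p27, at 3.73 to 7.53 RPKM. Both overlapped between the groups (Cdkn1a log2 fold change 0.25 with an edgeR adjusted p = 0.871, Cdkn1b -0.42 with 0.742). Of 14 cell cycle inhibitors, D and E cyclins and their kinases, 7 had a positive and 7 a negative log2 fold change (median -0.01), and edgeR called 0, with 0 at an unadjusted p under 0.05 and 0 by DESeq2. Ccne1, Ccnd1 and Cdk2, which drive the G1 phase and entry into S phase, lay wholly higher in neonatal libraries, as did 7.69% of all tested genes. Of the other drivers in the list, Ccne2, Ccnd3 and Cdk6 had log2 fold changes of -0.60, -0.32 and -0.18. Ccnd2 and Cdk4 had 0.70 and 0.64, and all of these overlapped between the groups. Ccne1 averaged 32.1 ± 5.28 and 48.0 ± 2.22 CPM in adult and neonatal libraries, and Cdk2 127 ± 8.51 and 151 ± 16.6 CPM (SD, n = 3 each). Ccnd1 was at 1.67 to 13.2 CPM (adult) against 14.6 to 42.4 CPM (neonatal) (edgeR adjusted p = 0.491, 0.789 and 0.499 for Ccne1, Cdk2 and Ccnd1).

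**Figure D2:**
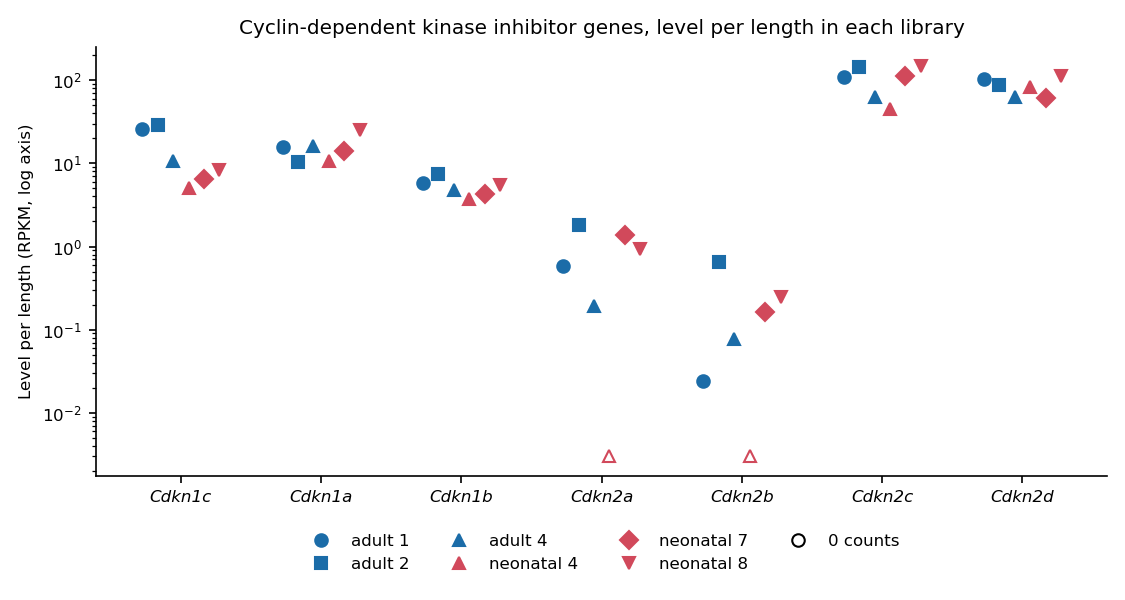
RPKM (log axis) of 7 cyclin-dependent kinase inhibitor genes in each library, adult in blue and neonatal in red; open symbols at the bottom mark 0 counts. Cdkn1c lies at 10.7 to 29.2 RPKM in adult and 5.08 to 8.31 RPKM in neonatal libraries, below Cdkn2c and Cdkn2d in all 6.

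Around Cdkn1c the imprinted cluster on chromosome 7 was read unevenly. Kcnq1ot1, the long noncoding RNA of the paternal copy that silences Cdkn1c on it, was at 82.4, 203 and 110 CPM (adult replicates 1, 2, 4) against 78.6, 27.1 and 12.1 CPM (neonatal replicates 4, 7, 8). It was lower in all neonatal libraries, like Cdkn1c and 12.0% of all tested genes, though neonatal replicate 4 came close to adult replicate 1. Per length, Kcnq1ot1 stood below Cdkn1c in every library, at 0.988 to 2.43 RPKM (adult) and 0.146 to 0.942 RPKM (neonatal). Its log2 fold change was -1.77 ± 0.69 (SE, edgeR adjusted p = 0.369), and without neonatal replicate 4 it fell by 2.74 on the log2 scale (edgeR adjusted p = 0.0451, with 0.0222 to 0.757 over all 16 alternatives). Kcnq1, on the other strand and with 121 shared exon bases, had 0 counts. The placental growth restrainer Phlda2 had 1 count. Slc22a18, a transporter gene beside it, averaged 5.95 ± 1.21 and 3.77 ± 1.01 CPM (SD, n = 3 each), and Osbpl5, a lipid transfer gene at the edge of the cluster, 2.46 ± 2.64 and 12.3 ± 5.63 CPM (SD, n = 3 each, edgeR adjusted p = 0.672 and 0.351). Cd81, Tspan32, Tssc4 and Nap1l4 were read at 39.4 to 353 CPM in every library and overlapped between the groups.

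**Figure D3:**
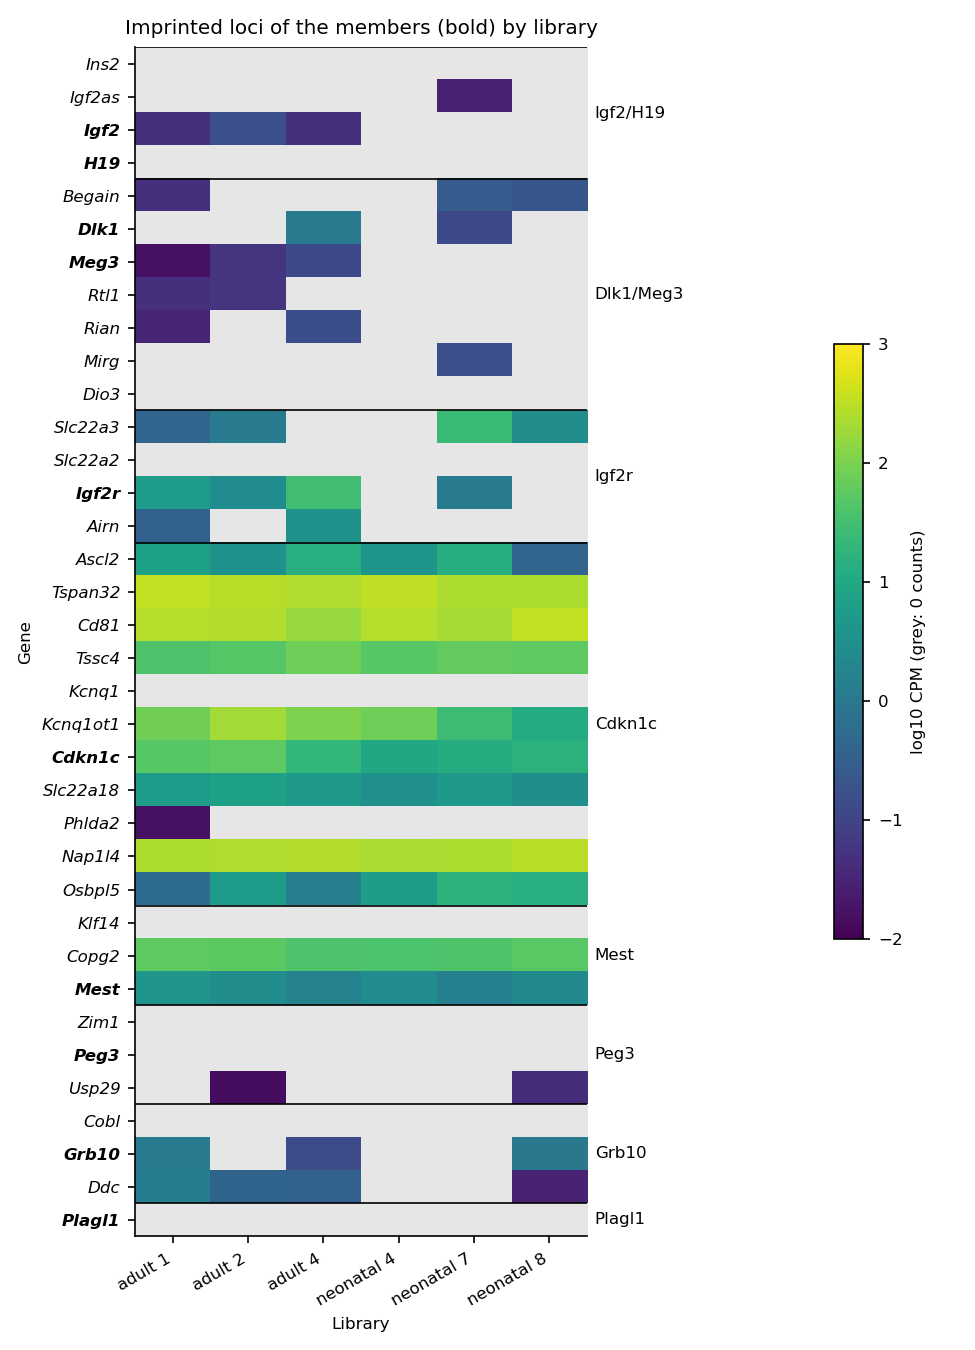
log10 CPM (colour) of imprinted genes at the loci of the 10 genes (bold), by library; grey marks 0 counts. The Igf2/H19, Dlk1/Meg3, Peg3 and Plagl1 loci are grey or dark, while most of the Cdkn1c cluster is read in every library.

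The Dlk1 and Meg3 locus on chromosome 12 was close to silent. Dlk1 (109452823 to 109463336, plus strand), a Notch-like membrane protein gene of progenitors, had 78 counts in adult replicate 4 (1.21 CPM), 9 in neonatal replicate 7 (0.127 CPM) and 0 in the other 4 libraries. Adult replicate 4 thus held 89.7% of its reads. Meg3 (109540996 to 109571729, plus strand), the long noncoding RNA read from the maternal copy of the locus, had 1, 4 and 8 counts in adult replicates 1, 2 and 4 and 0 counts in the neonatal libraries. With the adult mean taken as exact, the neonatal group was at least 3.16-fold lower against a limit of 3 counts over the group. The counting error of the adult reads is left out. This bound rests on 13 reads, 8 of them in adult replicate 4, without which it is 1.80-fold. It too is carried by neonatal replicates 7 and 8, as 0.897 CPM in neonatal replicate 4 lies above all adult values. Rian and Mirg, noncoding RNAs downstream of Meg3, had 12 counts each in all, Rian in adult replicates 1 and 4 and Mirg in neonatal replicate 7. Rtl1, a retrotransposon-like gene between Meg3 and Rian, had 7 counts. Of 15 genes of the Notch pathway, 9 were tested, 4 with a positive and 5 with a negative log2 fold change (median -0.07), and edgeR called 0, with 0 at an unadjusted p under 0.05 and 0 by DESeq2. Nrarp, a target and inhibitor of Notch signalling, was at 0.0149 to 1.99 CPM (adult) against 3.89 to 8.62 CPM (neonatal) (edgeR adjusted p = 0.418), and Jag1, a Notch ligand, at 0.595 to 0.981 and 0 to 0.566 CPM (edgeR adjusted p = 0.644).

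Mest, which encodes a hydrolase-like protein of mesodermal tissue and lies on chromosome 6 (30733506 to 30748466, plus strand), was low but present in all 6 libraries. It was at 3.97, 2.80 and 1.65 CPM (adult replicates 1, 2, 4) against 2.69, 1.44 and 2.44 CPM (neonatal replicates 4, 7, 8). The groups overlapped, with adult replicate 1 highest and neonatal replicate 7 lowest. The means of 2.81 ± 1.16 and 2.19 ± 0.660 CPM (SD, n = 3 each) differed by less than the spread within the adult group (log2 fold change -0.38 ± 0.61, SE, edgeR adjusted p = 0.868). With neonatal replicate 4 left out, where Mest had 9 counts, the log2 fold change was -0.52 ± 0.65 (SE, edgeR adjusted p = 0.634). Copg2, a coat protein gene of the same imprinted region, was at 38.9 to 58.6 CPM (edgeR adjusted p = 0.853), and Klf14 had 0 counts. The zinc finger genes Peg3 (chromosome 7, 6705960 to 6730419, minus strand) and Plagl1 (chromosome 10, 13090788 to 13131695, plus strand) had no read. At the Peg3 locus, Usp29, which shares the Peg3 control region, had 4 counts in all and Zim1 had 0.

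Promoter windows were compared because imprints at several of these promoters set which copy is read. RefSeq windows (GRCm38.p6, 250 bases before to 50 after a start) were found for 8 of the 10 genes. They were searched on both strands for TGCCGC, the hexamer bound by the imprint protein ZFP57. It was in 6 of their 15 windows, 2 of which are Mest starts 3 bases apart, and in 11.6% of 32807 windows of all genes. The hexamer itself holds a CpG, and the windows of all genes were not matched for CpG content. Shown are Mest (2 matches) and Igf2r (none), both read in these cells, and Plagl1 (1 match) and Peg3 (none), both at 0 counts, with matches in capitals (the capitals read GCGGCA where the match is on the other strand).
Mest, chr6:30737800-30738099, plus strand: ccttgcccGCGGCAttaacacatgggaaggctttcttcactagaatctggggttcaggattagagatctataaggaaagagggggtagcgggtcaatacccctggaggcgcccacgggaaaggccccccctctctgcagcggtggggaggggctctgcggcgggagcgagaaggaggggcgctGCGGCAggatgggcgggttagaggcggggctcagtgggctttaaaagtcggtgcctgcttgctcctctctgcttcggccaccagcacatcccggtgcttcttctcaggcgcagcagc
Igf2r, chr17:12769657-12769956, minus strand: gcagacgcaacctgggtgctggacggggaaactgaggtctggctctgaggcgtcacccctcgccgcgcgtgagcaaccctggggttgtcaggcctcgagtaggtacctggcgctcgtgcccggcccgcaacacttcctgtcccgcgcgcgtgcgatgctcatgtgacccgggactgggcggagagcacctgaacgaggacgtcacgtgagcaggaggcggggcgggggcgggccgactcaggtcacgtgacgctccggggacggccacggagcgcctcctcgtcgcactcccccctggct
Plagl1, chr10:13090582-13090881, plus strand: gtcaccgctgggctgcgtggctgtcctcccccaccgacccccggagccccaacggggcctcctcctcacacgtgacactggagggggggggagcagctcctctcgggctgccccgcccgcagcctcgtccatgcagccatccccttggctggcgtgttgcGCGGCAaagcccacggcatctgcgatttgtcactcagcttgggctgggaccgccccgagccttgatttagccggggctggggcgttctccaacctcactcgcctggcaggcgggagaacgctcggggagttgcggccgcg
Peg3, chr7:6730370-6730669, minus strand: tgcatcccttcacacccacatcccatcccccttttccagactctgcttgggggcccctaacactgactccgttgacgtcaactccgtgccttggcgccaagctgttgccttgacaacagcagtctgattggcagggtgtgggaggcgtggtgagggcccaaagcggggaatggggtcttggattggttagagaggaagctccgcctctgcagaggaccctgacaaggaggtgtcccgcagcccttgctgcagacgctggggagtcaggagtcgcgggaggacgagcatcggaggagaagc
These windows held 17, 34, 26 and 13 CpG dinucleotides in this order, all above the median of 7 over all windows. A match was thus found in a read and in a silent gene, and none in another read and another silent gene. A match is a description of the letters and not a site.

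Of 73 other genes listed as imprinted, 70 were in the table, and their imprinting in these cells was not measured. Of the 70, 16 had 0 counts in every library, as had 27.5% of all genes, and 38 were tested. Ndn, Magel2 and Dio3 were among the 16. So were Snrpn and Snurf, but they overlap on 1 strand, where shared reads may go uncounted. Of the 38 tested genes, 12 had a positive and 26 a negative log2 fold change (median -0.44), where 46.5% of all tested genes were negative. By edgeR 0 passed, with 11 at an unadjusted p under 0.05 (all tested genes 11.9%), and DESeq2 called 5 (all tested genes 5.72%). The groups did not overlap for 4 genes wholly higher and 10 wholly lower in neonatal libraries, against 7.69% and 12.0% of all tested genes. Gnas, the G protein subunit gene of a complex imprinted locus, had an adult mean of 442 ± 135 and a neonatal mean of 954 ± 324 CPM (± SD with n = 3, log2 fold change 1.11, edgeR adjusted p = 0.332). H13, a signal peptide peptidase gene, had an adult mean of 196 ± 14.0 and a neonatal mean of 432 ± 135 CPM (± SD with n = 3, log2 fold change 1.14, edgeR adjusted p = 0.225). Rasgrf1, an activator of RAS read from the paternal copy, was at 0, 0.164 and 0 CPM (adult replicates 1, 2, 4) against 3.29, 1.13 and 0.696 CPM (neonatal replicates 4, 7, 8) (edgeR adjusted p = 0.303), and passed the filter because of its neonatal reads.

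Genes of that set that lay wholly lower in neonatal libraries were led by Ppp1r9a, Ddc and Phf17. Ppp1r9a, which encodes an actin-binding scaffold, was at 2.91, 1.22 and 5.53 CPM (adult replicates 1, 2, 4) against 0, 0.0283 and 0.0296 CPM (neonatal replicates 4, 7, 8) (log2 fold change -6.76 ± 1.04, SE, edgeR adjusted p = 0.140). It passed the filter through its adult libraries alone, so its groups had to differ. Phf17, a gene of a histone acetylation complex, had an adult mean of 71.7 ± 12.7 and a neonatal mean of 36.4 ± 3.76 CPM (± SD with n = 3, log2 fold change -0.98, edgeR adjusted p = 0.233). Without neonatal replicate 4, 5 of 42 tested genes passed, against 5.98% of all genes, with H13 and Gnas higher and Ppp1r9a, Kcnq1ot1 and Commd1 lower in neonatal libraries (edgeR adjusted p = 0.0320, 0.0472, 0.0377, 0.0451 and 0.0474, Commd1 named after its values were seen). Commd1 was highest of all in neonatal replicate 4 (221 CPM), and its log2 fold change of -0.03 on 6 libraries changed sign in 6 of 16 alternatives. Over 16 alternatives the adjusted p ran from 0.0144 to 0.556 for H13 and from 0.0399 to 0.659 for Gnas, and over 15 from 3.07e-07 to 0.389 for Ppp1r9a.

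**Figure D4:**
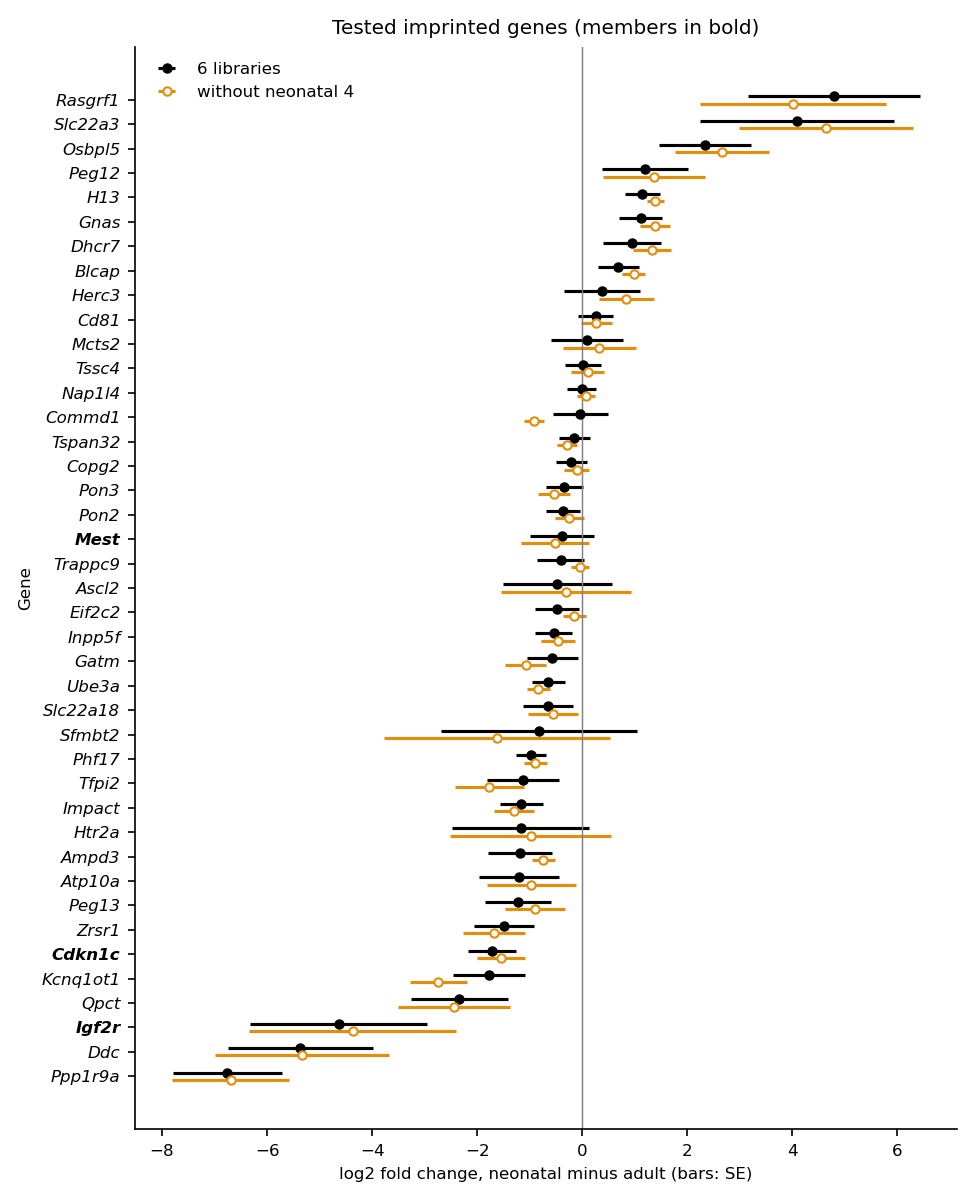
Log2 fold change, neonatal minus adult, with SE of the 41 tested imprinted genes (Cdkn1c, Igf2r and Mest in bold), from all 6 libraries (black) and without neonatal replicate 4 (open orange). Igf2r (-4.64) and Cdkn1c (-1.71) lie to the left of 0 in both fits, and Mest (-0.38) lies within its SE of 0.

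Of 40 genes of insulin-like growth factor and insulin signalling, 8 had 0 counts in every library and 28 were tested, 12 with a positive and 16 with a negative log2 fold change (median -0.10). By edgeR 0 passed, while 4 had an unadjusted p under 0.05 and DESeq2 called 1, where the shares of all tested genes were 11.9% and 5.72%. Igf1, the postnatal growth factor, was at 0.502, 1.82 and 0.919 CPM (adult replicates 1, 2, 4) against 0, 0.0142 and 0.0296 CPM (neonatal replicates 4, 7, 8). Every adult value lay above every neonatal one, though the limit of neonatal replicate 4 (0.897 CPM) reaches past the lowest adult value (log2 fold change -5.55 ± 1.10, SE, edgeR adjusted p = 0.140). Igf1 also passed the filter only through adult libraries, which fixes the direction of its difference. Igf1r, the receptor that signals for both growth factors, overlapped between the groups, with its highest levels in adult replicate 2 (76.8 CPM) and neonatal replicate 8 (84.6 CPM) (log2 fold change -0.09, edgeR adjusted p = 0.977). Insr, the insulin receptor gene, had an adult mean of 30.9 ± 11.1 and a neonatal mean of 12.9 ± 4.42 CPM (± SD with n = 3, log2 fold change -1.28, edgeR adjusted p = 0.299). Per length, Igf1r (1.30 to 7.07 RPKM) and Insr (1.05 to 4.32 RPKM) stood below Cdkn1c in every library.

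Among carriers and RNA-binding proteins of the pathway, Igfbp4, an IGF-binding protein gene picked for its values, stood at 164, 116 and 758 CPM (adult replicates 1, 2, 4) against 50.5 to 160 CPM (neonatal). Adult replicate 4 stood apart, as for Igf2r, Dlk1, Airn and Grb14. Igfbp1, Igfbp2, Igfbp3 and Igfbp5 had 0 counts. Igf2bp2, which binds Igf2 RNA, had an adult mean of 5.03 ± 2.36 and a neonatal mean of 1.09 ± 0.697 CPM (± SD with n = 3, log2 fold change -2.17, edgeR adjusted p = 0.284). Igf2bp3, its fetal relative, likewise picked for its values, stood at 127 to 167 CPM (adult) against 136 to 244 CPM (neonatal) (edgeR adjusted p = 0.747), while Igf2 itself had 17 reads in all.

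**Figure D5:**
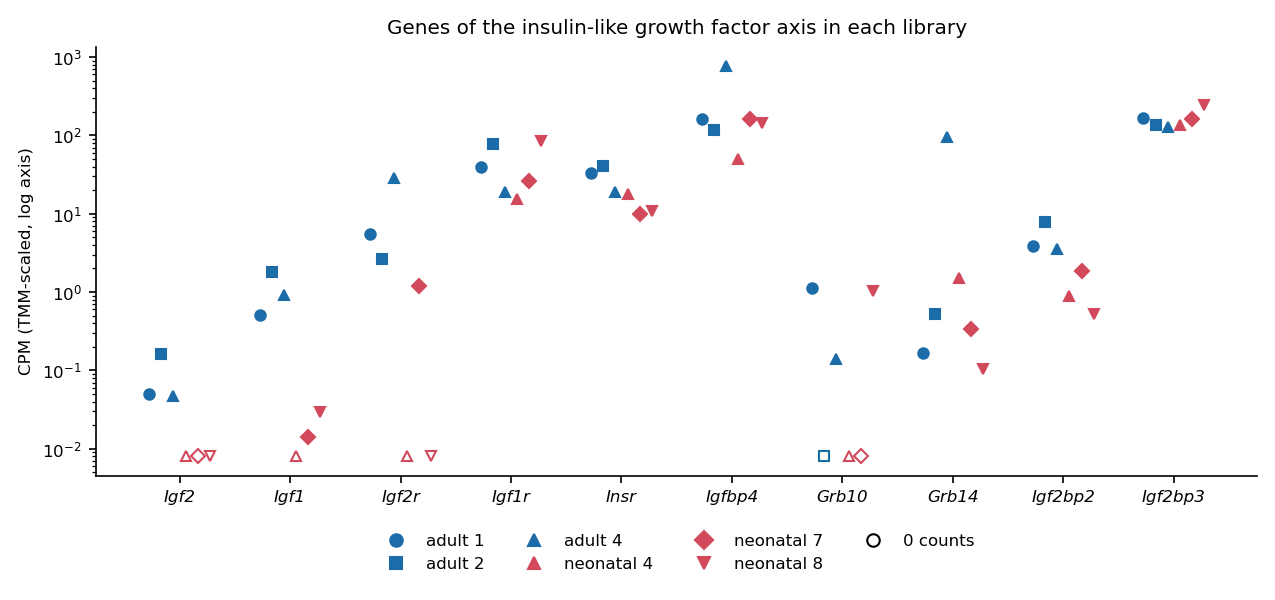
CPM (log axis) of 10 genes of the insulin-like growth factor axis in each library, adult in blue and neonatal in red; open symbols at the bottom mark 0 counts. Igf2 and Igf1 lie under 2 CPM everywhere, Igf1r and Insr between 9.84 and 84.6 CPM, and adult replicate 4 stands above the others for Igf2r, Igfbp4 and Grb14.

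Most genes that keep imprints were present at both ages. Of 21 genes, 18 were tested, 8 with a positive and 10 with a negative log2 fold change (median -0.07). By edgeR 0 passed. At an unadjusted p under 0.05 there were 3, beside 11.9% of all tested genes, and DESeq2 called 2, beside 5.72%. Ctcf, the insulator protein gene of the Igf2/H19 locus, was at 132 to 146 CPM (adult) against 93.5 to 166 CPM (neonatal) (edgeR adjusted p = 0.974). Zfp57 had 3 counts, all in neonatal replicate 7, whereas Zfp445, the other zinc finger gene known to keep imprints, was lower in all neonatal libraries, at 20.3 to 37.6 against 57.4 to 87.3 CPM (log2 fold change -1.21, edgeR adjusted p = 0.224). Dnmt3b, a methyltransferase of new DNA methylation, had an adult mean of 13.7 ± 1.15 and a neonatal mean of 36.3 ± 20.4 CPM (± SD with n = 3, log2 fold change 1.42, edgeR adjusted p = 0.285). It rose without neonatal replicate 4 (log2 fold change 1.76, edgeR adjusted p = 0.0367, with 0.0282 to 0.659 over all 16 alternatives). Tet2, which starts the removal of methylation, averaged 91.9 ± 8.27 and 52.6 ± 16.9 CPM, and Smchd1, a chromatin protein that silences imprinted clusters, 75.3 ± 9.77 and 51.5 ± 5.65 CPM (SD, n = 3 each, edgeR adjusted p = 0.386 and 0.499).

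The genes whose pattern over the 6 libraries was most like that of a tested member were found by the root mean square (RMS) difference of centred log2 CPM. For Cdkn1c (SD 1.04 over libraries) they were Lrrk2, a kinase gene, and Gab3, an adaptor gene of myeloid cells, at RMS differences of 0.0958 and 0.293. Lrrk2 was at 78.2, 79.9 and 27.4 CPM (adult replicates 1, 2, 4) against 12.9, 19.3 and 22.1 CPM (neonatal replicates 4, 7, 8). For Igf2r (SD 3.94) they were Pmp22, a membrane protein gene of myelin, and Tchh, a hair follicle protein gene, at 0.626 and 0.664. Pmp22 was likewise highest in adult replicate 4 (78.7 CPM) and at 0 in neonatal replicates 4 and 8. For Mest (SD 0.526) they were Stk17b and Zfp119b, at 0.0956 and 0.125.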

How the data were processed

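The authors deposited raw counts of reads per gene. The tool was featureCounts v1.5.1, per the file headers, run on primary alignments with no strand option and a UCSC mm10 gene annotation. Exon lengths are those the authors' file gives beside the deposited counts. Per the labels' protocols, polyA-selected RNA was read single-end from a kit that does not mark strand. Trimmomatic, Bowtie, TopHat and DESeq2 are named, per the submitters' processing notes. The whole table was fitted with edgeR 4.0.16 in R 4.3.3 (filterByExpr with a minimum count of 10, TMM, a robust quasi-likelihood fit), neonatal minus adult, with Benjamini-Hochberg adjustment over the 13272 genes kept and a threshold of 0.05. The SE is the absolute log2 fold change divided by the square root of F.

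The members and the 19 gene lists (294 symbols, 290 in the table, 5 through synonyms) were chosen with earlier results of these data known. Named genes were the members, their imprinted neighbours, Xist and Eif2s3y, up to 3 genes per list and direction with the smallest p whose groups did not overlap, and the 2 genes most like each tested member. Of the picks from marker lists of other cells, only Egfl7, Pecam1 and Cd79b are named. Alternatives used DESeq2 1.42.0, limma 3.58.1, other scalings, filters, thinning and each library left out. The edgeR, DESeq2 and limma voom fits were tested on simulated data. Unstranded reads of overlapping genes could not be told apart.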

Additional observations from a re-analysis of the deposited data

How the results depend on the processing

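No paired analysis was possible because the groups share only 1 replicate number. Cdkn1c, Igf2r and Mest kept a negative log2 fold change under every alternative that gave a value (16, 16 and 15). Igf2r could not have passed the filter without its adult reads, so its sign is not independent of the filter. Cdkn1c passed by DESeq2 (-1.69) and by limma voom with library quality weights (-1.58), which, like leaving out chromosomes X and Y, was chosen after seeing the data, so these 2 settings called 1 of the 3 tested members. Grb14 changed sign without adult replicate 4 (0.59), and leaving out 1 library moved it from -7.16 to 0.59. Small differences also changed sign. Commd1 (-0.03) was at 0.034 by DESeq2, 0.031 by RLE and 0.011 by upper quartile scaling, and at -0.91 to 0.30 with 1 library left out. Igf1r (-0.09) was at 0.065 by limma voom, 0.031 with quality weights and -1.10 to 0.54 with 1 library left out. Ctcf (-0.05) was at 0.0079 and 0.11 by these 2 fits and -0.23 to 0.17 with 1 library left out, and Cdkn1a (0.25) at -0.18 to 0.49.

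Over all genes, 7 passed (2 higher, 5 lower in neonatal libraries). DESeq2 called 759 (323 higher, 436 lower) and the quality weights 1056 (537 higher, 519 lower). Thinning all libraries to the shallowest gave 12 (9 lower), RLE and upper quartile scaling each 1 higher. Without chromosomes X and Y, edgeR called 0 (0 higher, 0 lower), with 1527 at an unadjusted p under 0.05. Leaving out 1 library gave 1 to 828 genes (0 to 516 higher, 1 to 312 lower), and 828 only without neonatal replicate 4. The cause was not tested.

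Counts called in the lists by DESeq2, by the quality weights and without neonatal replicate 4 were 5, 8 and 5 of the other imprinted genes, 1, 3 and 0 of insulin-like growth factor genes, 2, 2 and 1 of imprint maintenance genes, 2, 3 and 4 of lysosomal genes, and 0, 1 and 0 of Notch genes. The shares called of all tested genes were 5.72%, 7.96% and 5.98%. In the order of these lists, 38, 28, 18, 16 and 9 genes were tested on 6 libraries. Without neonatal replicate 4 it was 42, 29, 18, 16 and 10. Leaving out any 1 library gave 0 to 5, 0 to 1 and 0 to 4 for the imprinted, maintenance and lysosomal lists. Depth limits neonatal replicate 4, where 3 counts are 0.897 CPM.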

Other observations

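Markers of other cells moved unevenly between the groups, and their part in the results was not tested. The 10 mature neutrophil genes all had a negative log2 fold change (median -4.62). By edgeR 0 of them were called, and 6 had an unadjusted p under 0.05, against 11.9% of all tested genes. The 12 genes of the sorted cells were all tested, 6 in each direction, and edgeR called 0. Cd34 lay wholly higher and Itgam and Csf3r wholly lower in neonatal libraries, as 7.69% and 12.0% of all tested genes did. The 12 genes summed to 2620 to 3070 CPM (adult) and 2510 to 3480 CPM (neonatal). Of 9 macrophage genes, 3 were positive and 6 negative, with sums of 233 to 806 and 309 to 576 CPM.

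Hepatocyte genes summed to 34.9 to 44.1 CPM (adult) and 17.3 to 85.4 CPM (neonatal), with 6 of 12 at 0 counts in every library. Trf made up most of these sums, at 34.3 to 41.7 CPM (adult) and 16.7 to 84.7 CPM (neonatal). Erythroid genes summed to 3.10 to 9.57 and 1.27 to 6.28 CPM, with 6 of 11 at 0. Among these, the alpha globin genes Hba-a1 and Hba-a2 share their positions, as do Hbb-b1 and Hbb-b2, so shared reads may go uncounted and their 0 is no measure of red cells. Megakaryocyte genes summed to 1.53 to 17.8 and 2.99 to 72.2 CPM, with 1 of 10 at 0. B cell genes summed to 38.8 to 70.2 and 73.2 to 151 CPM, mostly Cd79b (28.3 to 68.5 and 70.7 to 146 CPM), with 3 of 8 at 0. T and NK cell genes summed to 0.888 to 1.93 and 0.897 to 1.85 CPM, with 4 of 8 at 0. Summed over the 10 imprinted growth genes, those known to be read from the maternal copy stood at 49.9 to 59.4 CPM (adult) and 9.86 to 17.2 CPM (neonatal), mostly Cdkn1c except in adult replicate 4, where Igf2r (28.8 CPM) exceeded Cdkn1c (20.7 CPM). Those of the paternal copy stood at 2.91 to 4.02 and 1.57 to 2.69 CPM, mostly Mest.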
